A study of Mus musculus with 5 samples.

Results

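The genes described here are Cd36, Fabp4, Lpl, Plin1, Plin4, Pparg, Cebpa, Adipoq, Lpin1 and Acsl1, 10 of the 53927 gene rows in the deposited table. They were chosen by name for their roles in fatty acid uptake and fat storage, with the KO against WT values of these same libraries already known. Their differences between genotypes are therefore given as a description, with no test. All 10 names were found, each as a single row.

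RNA came from primary nephron progenitor cells, the self-renewing precursors of the kidney's filtering units, isolated from C57BL/6J mouse embryos and passaged 1 time in culture. There were 3 libraries from Dis3l2-/- (KO) embryos and 2 from Dis3l2+/+ (WT) embryos. Dis3l2 encodes an exoribonuclease that degrades uridylated RNA from its 3' end. The labels do not state whether libraries came from separate embryos or litters, nor which part of Dis3l2 was removed, and the spread between libraries may be partly technical. Values are CPM, reads per M of each library's effective size, as deposited by the authors.

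Fat cells take up fatty acids released from lipoproteins by lipoprotein lipase, carry them inside with binding proteins, activate them with acyl-CoA synthetases, join them into triglyceride and store the triglyceride in droplets coated by perilipins. The nuclear receptor PPAR-gamma, encoded by Pparg, and the transcription factor C/EBP-alpha, encoded by Cebpa, switch on many of these genes in fat cells. Several of them are also used outside fat. Cd36 and Fabp4 are found in capillary endothelial cells as well, and Cd36, Fabp4 and Lpl in macrophages.

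Depth was 49.25 M, 32.23 M and 19.61 M assigned reads in KO replicates 1, 2 and 3, and 22.34 M and 28.26 M in WT replicates 1 and 2, worked out from the spacing of low values. Dis3l2 itself had 6.50, 4.93 and 4.70 CPM in KO and 16.04 and 12.18 CPM in WT, so the genotypes did not overlap. Progenitor genes were present in all 5 libraries, though not every marker. Itga8, an integrin gene of the nephron progenitor, ran from 356 to 471 CPM in KO and from 438 to 441 CPM in WT. Six2, which maintains the progenitor state, had 18.6 to 31.9 CPM in KO and 18.8 to 19.0 CPM in WT. Of 10 progenitor markers, 1 stayed under 1 CPM in every library, Pax2, at 0.21 to 0.66 CPM in KO and 0.05 to 0.18 CPM in WT. Cited1 was uneven within both genotypes, at 17.05, 4.74 and 2.73 CPM in KO and 15.16 and 1.40 CPM in WT. So was Crym, at 10.72, 3.34 and 2.26 CPM in KO and 16.93 and 2.35 CPM in WT. The X-inactivation RNA Xist was high in KO replicates 1 and 2 and WT replicate 2 (765 to 951 CPM) and under 1 CPM in KO replicate 3 and WT replicate 1.

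The libraries do not bear out an adipocyte identity. The fat hormone gene Lep had at most 0.02 CPM in KO and 0.05 CPM in WT, each a single read. Retn, which encodes resistin, had at most 0.47 CPM in KO and 0.79 CPM in WT, and Cidec, a droplet-fusion gene of fat cells, had at most 0.33 CPM in KO and 0.93 CPM in WT. Of the 7 adipocyte markers looked at, these 3 and Cfd stayed under 1 CPM in every library. The others were Plin1 and Adipoq, which belong to the 10 genes and reached at most 1.44 CPM, and the insulin-responsive glucose transporter Slc2a4, which is also made in muscle. Slc2a4 had 37.2 to 48.0 CPM in KO and 36.9 to 39.5 CPM in WT, nearly all of the summed level of 38.8 to 49.1 CPM in KO and 41.8 to 42.3 CPM in WT. Plin1, Adipoq and Cfd were lower in every KO library than in both WT libraries, a pattern seen in 6.98% of the 14884 genes tested. Lep, Retn, Cidec and Slc2a4 overlapped between genotypes. Plin1 and Adipoq were chosen with this contrast known, and Cfd had 2, 2 and 0 reads in KO and 8 in each WT library. Nothing is read from this count. As no adipocyte identity was borne out, the 10 genes are called lipid uptake and storage genes below.

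All 10 genes had a lower mean in KO than in WT, and for 9 of them all 3 KO libraries were below both WT libraries. Among all 14884 genes tested, that pattern was seen in 6.98%, and the opposite, with the 3 KO libraries on top, in 7.85%. Nothing is read from the count of 9, because the genes were picked with this contrast in view. The KO mean was between 19.4% of the WT mean for Fabp4 and 78.4% for Acsl1. All 10 passed the filter on low values, but Plin1 and Adipoq did so through their WT libraries alone, so for these a difference was built in.

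**Figure D1:**
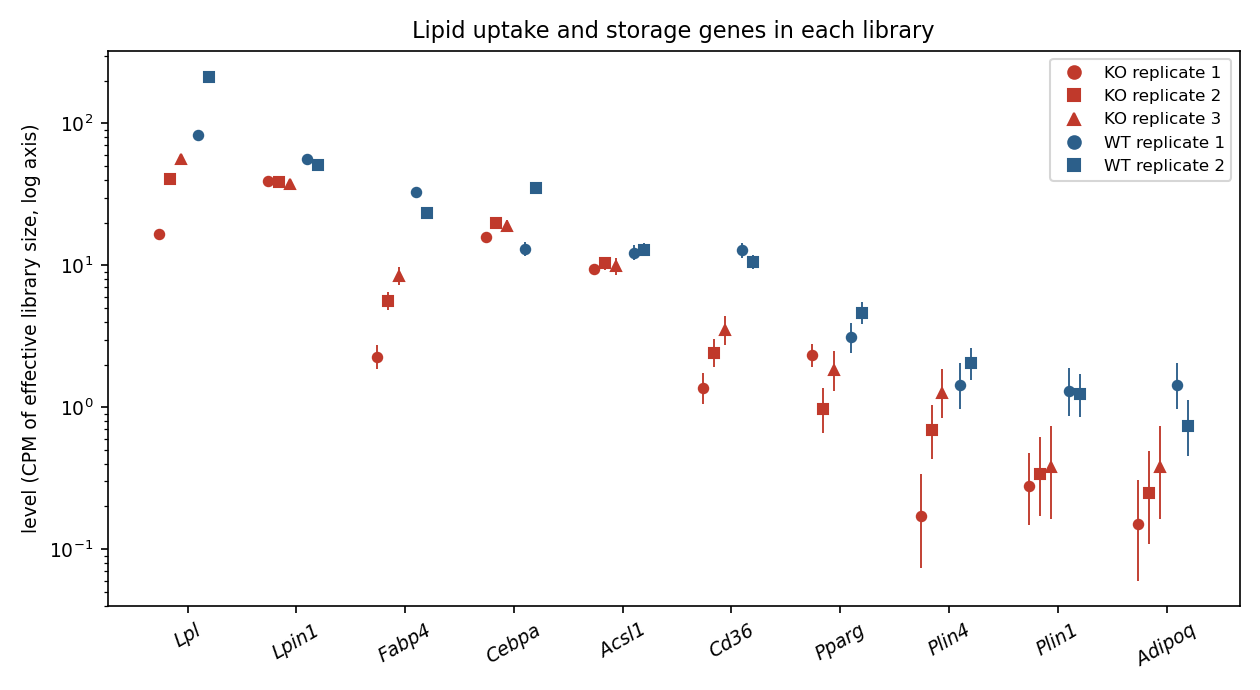
Level of each of the 10 genes in each library, in CPM of the effective library size on a log axis; red marks KO and blue WT, the marker shape gives the replicate, and bars are exact Poisson 95% intervals that cover counting error only. For every gene except Cebpa the 3 KO points lie below both WT points.

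Among the uptake genes, Cd36 encodes a scavenger receptor that brings long-chain fatty acids into cells. It had 1.36, 2.43 and 3.48 CPM in KO replicates 1, 2 and 3, against 12.8 and 10.64 CPM in WT replicates 1 and 2. These rest on 64, 78 and 74 reads in KO and 276 and 303 in WT. The highest KO library was well under the lower WT library, and the means were 2.42 ± 1.06 CPM in KO and 11.7 ± 1.53 CPM in WT (SD, n = 3 and 2). On the log2(CPM + 1) scale, which understates differences of low genes, KO minus WT was -1.94 with a standard error of 0.29. Cd36 lies on chromosome 5 at 17781690 to 17888801, minus strand (GRCm38), and overlaps no other annotated gene.

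Fabp4 encodes the fatty acid binding protein of fat cells, which carries fatty acids through the cytoplasm. Its levels were 2.26, 5.65 and 8.47 CPM in KO and 32.79 and 23.52 CPM in WT. The KO libraries differed 3.75-fold among themselves, yet the highest of them stayed far below the lower WT library. Means were 5.46 ± 3.11 CPM in KO and 28.2 ± 6.55 CPM in WT (SD, n = 3 and 2), a log2 difference of -2.29 with a standard error of 0.43. Fabp4 lies on chromosome 3 at 10204088 to 10208576, minus strand.

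Lpl encodes lipoprotein lipase, the enzyme that frees fatty acids from circulating triglyceride. In CPM per kb of exon, counting every annotated exon base, it had the highest WT mean of the 10 genes, 14.0. In KO it had 3.62, where Cebpa (6.92) and Lpin1 (4.00) were above it. For Fabp4 the exon length of 4489 bases is its whole locus, which may lower its level per kb. The place of Fabp4 in this ranking is therefore uncertain. Lpl levels were 16.56, 40.92 and 56.38 CPM in KO and 82.87 and 210.84 CPM in WT. The genotypes did not overlap, but the WT libraries differed 2.54-fold from each other. The log2 difference was -1.94 with a standard error of 0.56, and it was -1.27 without WT replicate 2 and -2.60 without WT replicate 1. KO replicate 3 had 68.0% of the level in WT replicate 1, its counterpart among the libraries with Xist near 0, whereas KO replicates 1 and 2 averaged 13.6% of WT replicate 2 among those with high Xist.

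Ratios between these genes within a library need no scaling between libraries. Fabp4 over Cd36 was 1.66, 2.33 and 2.43 in KO and 2.56 and 2.21 in WT, so both genes stood in nearly the same proportion in 4 of the 5 libraries and the KO replicate 1 ratio was lower. Lpl over Cd36 was 12.2, 16.8 and 16.2 in KO and 6.47 and 19.8 in WT, and there the WT libraries enclosed all KO libraries.

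The droplet coat genes were at much lower levels. Plin1, the perilipin that guards the large droplets of fat cells, had 0.28, 0.34 and 0.38 CPM in KO and 1.30 and 1.23 CPM in WT. These values come from 13, 11 and 8 reads in KO and 28 and 35 reads in WT. The libraries of each genotype were nearly level. Plin4, a perilipin of fat and muscle, was uneven across KO, at 0.17, 0.69 and 1.27 CPM, against 1.44 and 2.04 CPM in WT. KO replicate 3 was close to WT replicate 1, with 95% intervals of 0.837 to 1.85 CPM and 0.977 to 2.04 CPM that overlap widely. Plin4 shares its locus on chromosome 17 with Hdgfl2 on the other strand, and since no source used here tells whether counting used strand, some of its reads are uncertain.

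Adipoq encodes adiponectin, a hormone made by mature fat cells. It had 0.15, 0.25 and 0.38 CPM in KO and 1.44 and 0.74 CPM in WT, from 7, 8 and 8 reads in KO and 31 and 21 reads in WT. All KO libraries were below both WT libraries, but the KO replicate 3 interval (0.162 to 0.741 CPM) and that of WT replicate 2 (0.456 to 1.13 CPM) overlap. In log2(CPM + 1) the differences of Plin1, Plin4 and Adipoq were -0.77, -0.72 and -0.71, with standard errors of 0.14, 0.29 and 0.19. With a pseudocount of 0.25 in place of 1 they were -1.38, -1.22 and -1.37. The Plin4 value was -0.48 without KO replicate 1.

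Stretches before the RefSeq start sites of Cd36, Plin1 and Adipoq are printed because these 3 genes were among the 5 with the lowest KO means relative to WT, at 20.7%, 26.4% and 23.9% of the WT mean. Each is the 250 bases before the start on the gene's own strand, GRCm38.p6, from RefSeq. The Cd36 window lies inside the annotated gene, which spans 17781690 to 17888801, so it precedes an internal start site. The Plin1 window partly overlaps its annotated gene, which spans 79720218 to 79732903. Capitals mark AGGTCA, the half-site of PPAR receptors, and TTNNGNAA, the core of C/EBP sites, each searched on both strands.
Cd36, chr5:17835897-17836146, minus strand: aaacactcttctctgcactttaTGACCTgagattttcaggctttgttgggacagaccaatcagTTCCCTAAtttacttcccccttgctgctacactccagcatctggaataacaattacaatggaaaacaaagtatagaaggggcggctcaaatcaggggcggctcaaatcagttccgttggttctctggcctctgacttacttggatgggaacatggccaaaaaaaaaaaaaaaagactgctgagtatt
Plin1, chr7:79732777-79733026, minus strand: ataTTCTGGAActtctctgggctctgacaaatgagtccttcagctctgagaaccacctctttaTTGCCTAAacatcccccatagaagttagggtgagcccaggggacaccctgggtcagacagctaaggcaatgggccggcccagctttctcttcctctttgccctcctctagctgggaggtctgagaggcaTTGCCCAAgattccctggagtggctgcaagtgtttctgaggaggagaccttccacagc
Adipoq, chr16:23146286-23146535, plus strand: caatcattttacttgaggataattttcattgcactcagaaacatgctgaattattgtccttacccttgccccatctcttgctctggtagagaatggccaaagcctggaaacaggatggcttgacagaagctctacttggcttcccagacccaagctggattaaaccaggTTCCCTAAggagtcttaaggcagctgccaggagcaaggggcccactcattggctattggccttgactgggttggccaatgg

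The Cd36 window held a half-site beginning 228 bases before the start and a C/EBP core 187 bases before it. Both are read on the other strand. Plin1 had 3 C/EBP cores, the nearest beginning 58 bases before the start, and Adipoq had 1, beginning 81 bases before it. The Adipoq core is read on the other strand, and so are the Plin1 cores except the farthest from the start. Of the 10 genes, 8 have entries in the table, with 11 start sites in all. Fabp4 and Lpl have none there. The half-site was in 4 of the 11 windows and in 14.0% of all 32851 windows, and the C/EBP core was in 5 of 11 and in 36.8% of all. The letters TATAAA, on the gene's strand, were in 1 of 11, the window of Cebpa, and in 7.59% of all. Such matches describe the letters alone.

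The regulators were less far apart than the uptake genes. Pparg, the receptor that directs fat cell formation, had 2.32, 0.97 and 1.83 CPM in KO and 3.11 and 4.63 CPM in WT, with a log2 difference of -0.86 and a standard error of 0.27. Here KO replicate 1 was the highest KO library, whereas it was the lowest for Cd36, Fabp4 and Lpl. The Pparg 95% interval of KO replicate 1, 1.91 to 2.80 CPM, overlaps that of WT replicate 1, 2.41 to 3.95 CPM. Cebpa had 15.75, 19.90 and 19.05 CPM in KO and 13.03 and 35.32 CPM in WT. Its KO libraries lay between the WT libraries, and its log2 difference of -0.24, with a standard error of 0.37, became 0.45 without WT replicate 2 and -0.92 without WT replicate 1. Both genes overlap antisense gene models, and without strand the reads cannot be told apart.

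Lpin1 and Acsl1 act in triglyceride synthesis and varied little within a genotype. Lpin1, a phosphatidate phosphatase, had 39.36, 38.86 and 37.62 CPM in KO and 56.02 and 51.15 CPM in WT. The KO libraries were within 1.046-fold of each other and the gap to the lower WT library was larger than either genotype's range. The log2 difference was -0.46 with a standard error of 0.12. Acsl1, a long-chain acyl-CoA synthetase, had 9.38, 10.32 and 9.88 CPM in KO and 12.29 and 12.88 CPM in WT. That is a narrow gap, with means of 9.86 ± 0.47 CPM in KO and 12.6 ± 0.42 CPM in WT (SD, n = 3 and 2) and a log2 difference of -0.32 with a standard error of 0.15. The 95% intervals of KO replicates 2 and 3, 9.24 to 11.5 CPM and 8.58 to 11.3 CPM, overlap that of WT replicate 1, 10.9 to 13.9 CPM.

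**Figure D2:**
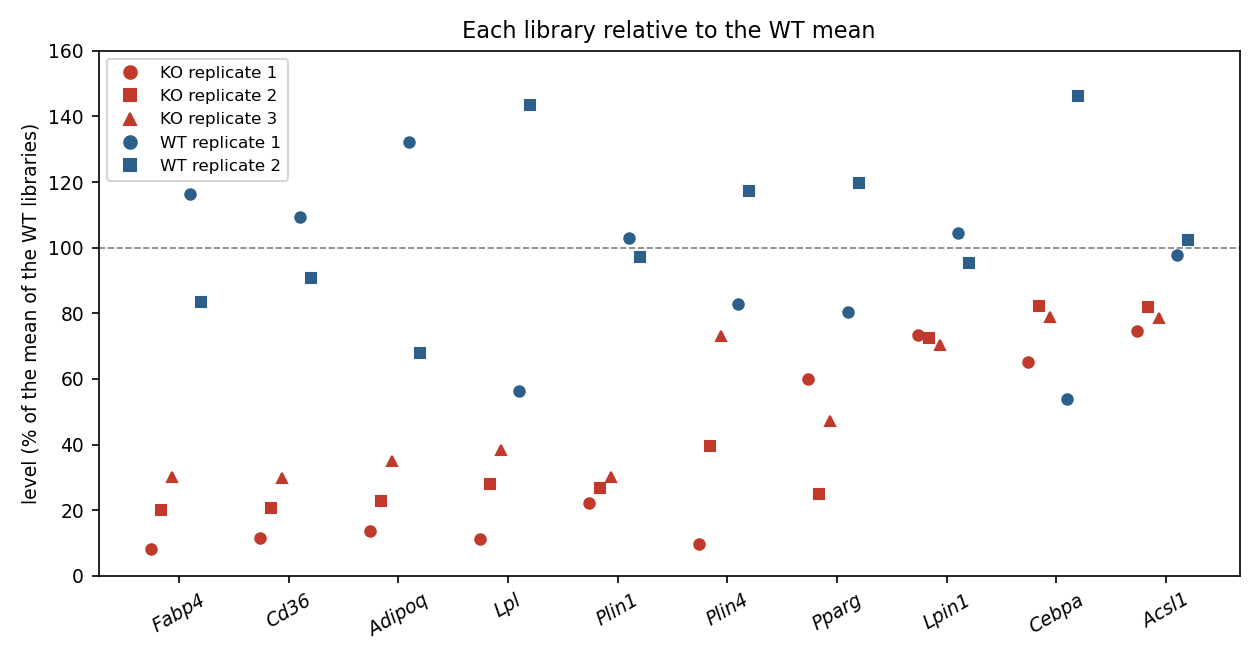
Level of each gene in each library as a percentage of the mean of the WT libraries (dashed line at 100%), with genes ordered by their KO mean and the same colours and shapes for genotype and replicate. KO replicate 1 is lowest and KO replicate 3 highest among the KO libraries for Fabp4, Cd36, Adipoq, Lpl, Plin1 and Plin4, while Lpin1 and Acsl1 stay between 70.2% and 82.0% in all 3.

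The KO libraries were not alike. For 6 of the 10 genes, Cd36, Fabp4, Lpl, Plin1, Plin4 and Adipoq, KO replicate 1 was lowest and KO replicate 3 highest. Taken as percentages of the WT mean, the 10 genes had medians of 17.9%, 27.4% and 42.8% in KO replicates 1, 2 and 3. The fold between the highest and the lowest KO library was 7.47 for Plin4, 3.75 for Fabp4, 3.40 for Lpl and 2.56 for Cd36, against 1.10 for Acsl1 and 1.046 for Lpin1. KO replicate 1 was also the deepest library and KO replicate 3 the shallowest, and KO replicate 3 alone of the KO libraries had Xist near 0. Among the libraries with high Xist, KO replicates 1 and 2 averaged 17.8% of WT replicate 2 for Cd36 and 16.8% for Fabp4. Among those with Xist near 0, KO replicate 3 had 27.2% and 25.8% of WT replicate 1. The same percentages, high Xist first, were further apart for Lpl (13.6% and 68.0%), Plin4 (21.1% and 88.2%), Pparg (35.5% and 58.8%) and Cebpa (50.5% and 146.2%). They were nearer alike for Plin1, Adipoq, Lpin1 and Acsl1. Each percentage rests on 1 WT library. Summed CPM of 12 markers of fat cell precursors and fibroblasts had the same order, at 109, 143 and 151 in KO replicates 1, 2 and 3, with 137 and 196 in WT replicates 1 and 2. Within that sum Pdgfrb had 46.0, 90.3 and 90.7 CPM in KO, but Dcn had 52.5, 38.3 and 48.0 CPM and Dlk1 4.35, 3.62 and 2.68 CPM. The summed markers of the other cell types looked at did not have this order. Endothelial markers, for example, summed to 95.1, 56.8 and 57.3 CPM in KO, and stroma markers to 1206, 2413 and 2126 CPM. Single markers within such sums went both ways. In KO replicates 1, 2 and 3 endothelial Emcn had 23.5, 27.1 and 34.2 CPM, but Plvap 28.2, 10.3 and 6.11 CPM. Stromal Acta2 had 167, 853 and 903 CPM, but Meis1 86.8, 39.7 and 38.6 CPM. Macrophage Csf1r had 0.79, 1.34 and 1.74 CPM, but Cd68 2.47, 2.21 and 1.79 CPM. The part of depth, Xist level or any of these markers in the order of the 6 genes was not tested.

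In whole cultures, fewer cells of a type and less RNA in each cell cannot be told apart, so markers of other cell types were read beside these genes. None of the markers tested passed over all genes (limma, adjusted p = 1 for each), with Mrc1, Col15a1, Pdgfra, Aldh1a2, Ntn1 and Osr1 at an unadjusted p under 0.05. The same fit also missed Dis3l2 (limma, adjusted p = 0.9545), so markers that did not pass are not shown to be unchanged. The counts below of markers with all KO libraries below both WT libraries, or above both, are over the markers that passed the filter, and stand beside 6.98% and 7.85% of all genes tested.

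Of 12 macrophage and leukocyte markers 9 stayed under 1 CPM in every library, and 2 of the 3 tested were lower in every KO library. These were Mrc1, a mannose receptor gene, at 1.37 to 2.43 CPM in KO and 2.95 to 3.85 CPM in WT, and Cd68, a lysosomal glycoprotein gene, at 1.79 to 2.47 CPM in KO and 2.88 to 3.15 CPM in WT. The third, the macrophage growth factor receptor gene Csf1r, overlapped and had the higher mean in KO, at 0.79, 1.34 and 1.74 CPM in KO and 0.65 and 1.23 CPM in WT. C1qc had no read, Adgre1 had none in KO and at most 0.04 CPM in WT, and Ptprc had at most 0.03 CPM in KO and 0.11 CPM in WT. The summed level was 5.44 to 5.75 CPM in KO and 7.94 to 8.70 CPM in WT.

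Of 12 endothelial markers 7 were tested, and Tek alone was lower in every KO library. Most of the summed level, 56.8 to 95.1 CPM in KO and 72.8 to 95.2 CPM in WT, came from 3 genes whose libraries overlapped between genotypes. Emcn, the endomucin gene, had 23.5 to 34.2 CPM in KO and 28.8 to 64.6 CPM in WT. Kdr, a VEGF receptor gene, had 10.7 to 35.6 CPM in KO and 5.27 to 18.6 CPM in WT, and Plvap 6.11 to 28.2 CPM in KO and 14.5 to 18.1 CPM in WT. Pecam1 and Cdh5, which mark endothelial junctions, stayed under 1 CPM in every library.

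Of the precursor and fibroblast markers 9 were tested and 2 were lower in every KO library. Col15a1, a basement membrane collagen gene, had 0.36 to 1.37 CPM in KO and 1.99 to 2.39 CPM in WT, and Pdgfra, a growth factor receptor gene, had 2.15 to 3.53 CPM in KO and 4.27 to 6.28 CPM in WT. Of 10 renal stroma markers 8 were tested, with 1 lower and 1 higher in every KO library. Aldh1a2, a retinoic acid synthesis gene, had 128 to 178 CPM in KO and 244 to 323 CPM in WT (log2 difference -0.93, standard error 0.20). Ntn1, the netrin-1 gene, had 17.1 to 48.6 CPM in KO and 8.81 to 13.7 CPM in WT (log2 difference 1.48, standard error 0.43). Of 10 progenitor markers 9 were tested, and Osr1, an early kidney transcription factor gene, was higher in every KO library, at 27.3 to 64.6 CPM in KO and 19.5 to 22.3 CPM in WT. Summed levels overlapped for stroma, 1206 to 2413 CPM in KO and 1258 to 2196 CPM in WT, and for progenitors, 745 to 894 CPM in KO and 730 to 928 CPM in WT. The part of any of these cells in the lower lipid gene levels was not tested.

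Other genes of the pathway were compared in the fit over all genes. With limma and adjustment by Benjamini-Hochberg, 1 of the 14884 genes passed (0.00672%), the vault RNA Vaultrc5. Dis3l2 itself did not pass, with a log2 difference of -1.24 and a standard error of 0.21 (limma, adjusted p = 0.9545). In the authors' deposited table its FDR was 0.00855. A gene that did not pass in this fit is therefore not shown to be unchanged. In 7 lists of lipid genes by role, without the 10 genes, 79 genes were tested and none passed in either direction, with 4 at an unadjusted p under 0.05. By mean 39 were lower in KO and 40 higher, and the median log2 difference was 0.01, beside 0.01 over all genes tested. All 3 KO libraries were below both WT libraries for 7 of the 79 genes, or 8.86%, and above both for 7 more. Among the lower 7 is Sncg, which passed the filter through its WT libraries alone. For the 10 genes the median log2 difference was -0.74, a value their choice fixes in direction.

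**Figure D3:**
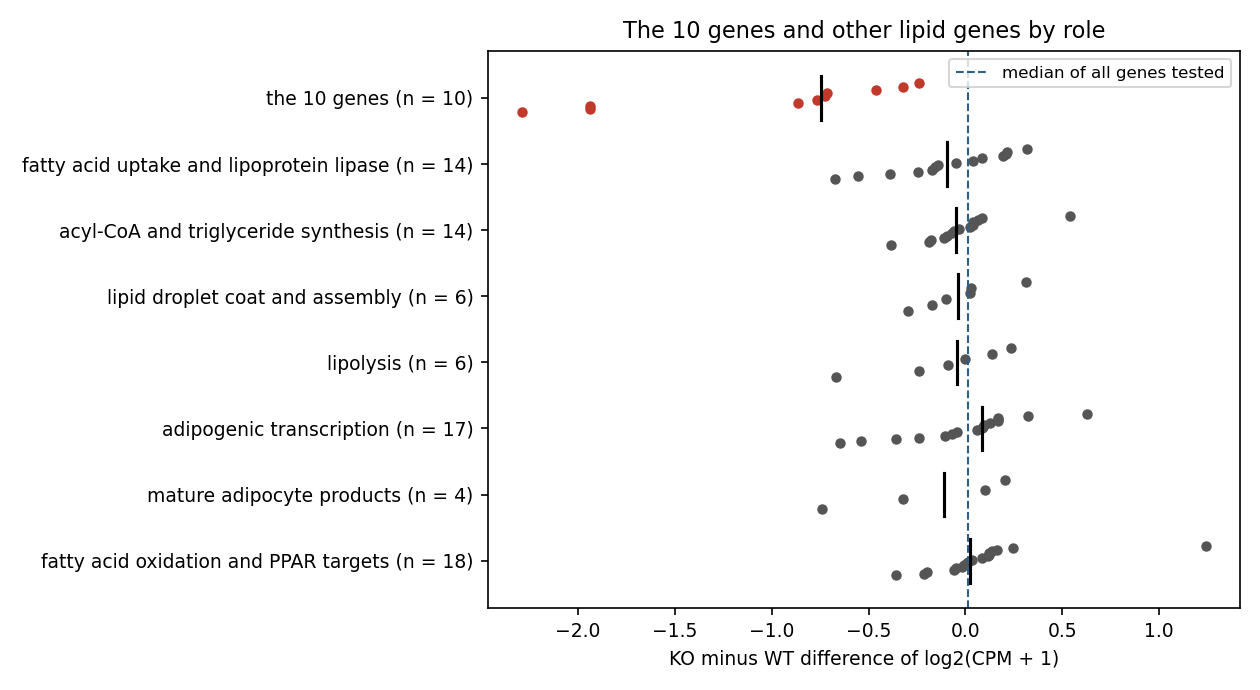
KO minus WT differences of log2(CPM + 1) for the 10 genes (top, red) and for the tested genes of 7 lipid lists without them (grey); each point is a gene, black bars are list medians and the dashed line is the median of all genes tested. The lists centre between -0.11 and 0.08 while the 10 genes centre at -0.74.

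In the list of fatty acid uptake and lipoprotein lipase genes, 8 of 14 tested genes were lower and 6 higher. Fabp5, the skin-type fatty acid binding protein and a neighbour of Fabp4 on chromosome 3, had 7.35, 12.16 and 9.17 CPM in KO and 14.10 and 17.10 CPM in WT, a log2 difference of -0.67, standard error 0.23 (limma, adjusted p = 1). Slc27a4, a fatty acid transport protein gene, had 22.7 to 26.01 CPM in KO and 21.1 to 21.9 CPM in WT, with the KO libraries on top. Lmf2, a lipase maturation factor gene, had a log2 difference of 0.32, with overlapping libraries. Gpihbp1, the endothelial anchor of lipoprotein lipase, had at most 0.06 CPM in KO and 0.14 CPM in WT.

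Among 14 tested genes of acyl-CoA and triglyceride synthesis, 8 were lower and 6 higher. Agpat1, an acyltransferase gene, had 57.1 to 79.9 CPM in KO and 43.6 to 54.1 CPM in WT (log2 difference 0.54, standard error 0.19, adjusted p = 1, limma). Acsl3, a relative of Acsl1 that acts on droplets, had 66.7 to 93.3 CPM in KO and 99.2 to 110 CPM in WT, with a log2 difference of -0.39. The final enzymes of triglyceride synthesis, Dgat1 and Dgat2, averaged 13.3 and 9.40 CPM in KO and 13.2 and 8.77 CPM in WT.

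Of the droplet genes outside the 10, 6 could be tested, 3 lower and 3 higher. G0s2, an inhibitor of fat breakdown, had 0.47 to 0.75 CPM in KO and 0.93 to 1.02 CPM in WT. Fitm2, a droplet-forming gene, had 9.76 to 10.77 CPM in KO and 10.85 to 11.4 CPM in WT. In fat breakdown 6 genes were tested, 4 lower and 2 higher, with no list member on a single side in every KO library. Pnpla3, a lipase gene, had 0.23, 0.69 and 0.94 CPM in KO and 0.88 and 2.39 CPM in WT, and the main triglyceride lipase gene Pnpla2 had 1.93 to 2.90 CPM in KO and 2.67 to 2.78 CPM in WT.

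Among 17 other regulators of fat cell formation, 7 were lower and 10 higher. Ebf3, a relative of the adipogenic factor Ebf1, had 11.8 to 15.7 CPM in KO and 6.68 to 10.1 CPM in WT (log2 difference 0.63, standard error 0.22, adjusted p = 1, limma). Ebf1 had 98.05 to 137.46 CPM in KO and 136.56 to 138.60 CPM in WT, overlapping. Cebpb, an early factor upstream of Pparg in fat cell formation, had 2.32 to 4.80 CPM in KO and 3.71 to 7.83 CPM in WT.

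Of the other fat cell products 4 could be tested, 2 lower and 2 higher. Sncg, which encodes gamma-synuclein, had 0.24 to 0.47 CPM in KO and 0.67 to 0.70 CPM in WT. It passed the filter through its WT libraries alone, so a difference was built in, as for Plin1 and Adipoq. Cfd, the complement factor D gene of fat cells, stayed under the filter and was not tested, with at most 0.06 CPM in KO and 0.28 and 0.37 CPM in WT.

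Fatty acid oxidation and PPAR target genes numbered 18 tested, 7 lower and 11 higher. Cpt1a, the gate of mitochondrial fatty acid oxidation, averaged 47.3 CPM in KO and 46.9 CPM in WT. Ppara, the oxidation-promoting relative of Pparg, had 1.28 to 1.55 CPM in KO and 2.04 to 2.13 CPM in WT.

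Paralogs of the 10 genes show which family members the cultures carried. Per kb of exon, Plin2 and Plin3, the perilipins of most cell types, averaged 10.4 and 11.2 CPM in KO and 10.2 and 8.90 CPM in WT, whereas Plin1 averaged 0.0717 CPM per kb in KO and 0.272 in WT. The Plin2 libraries overlapped between genotypes, at 30.6 to 41.2 CPM in KO and 31.1 to 40.3 CPM in WT, and the Plin3 libraries did not, at 35.5 to 46.1 CPM in KO and 32.4 to 35.01 CPM in WT. Plin1 over Plin2 was 0.00916, 0.00909 and 0.00923 in KO and 0.0418 and 0.0305 in WT. Plin5 had no read in any library.

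Fabp4 and Fabp5 stood in opposite order in the genotypes. Per kb of exon Fabp4 averaged 1.22 CPM in KO and 6.27 CPM in WT, and Fabp5 2.68 CPM in KO and 4.37 CPM in WT. These values depend on the exon lengths used, 4489 bases for Fabp4, its whole locus, and 3567 bases for Fabp5. The CPM ratio of Fabp4 over Fabp5 was 0.308, 0.465 and 0.924 in KO and 2.33 and 1.38 in WT. Of the other genes in the cluster around Fabp4, Fabp9, Fabp12 and Pmp2 had no read, and the flanking Impa1 and Zfand1 had log2 differences of 0.12 and -0.02. Among the acyl-CoA synthetases Acsl1 was at 0.941 CPM per kb in KO and 1.20 in WT, far below Acsl3 at 18.5 in KO and 24.0 in WT. Lpin2, the other lipin with measurable levels, had 30.03 to 36.5 CPM in KO and 30.2 to 38.9 CPM in WT.

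**Figure D4:**
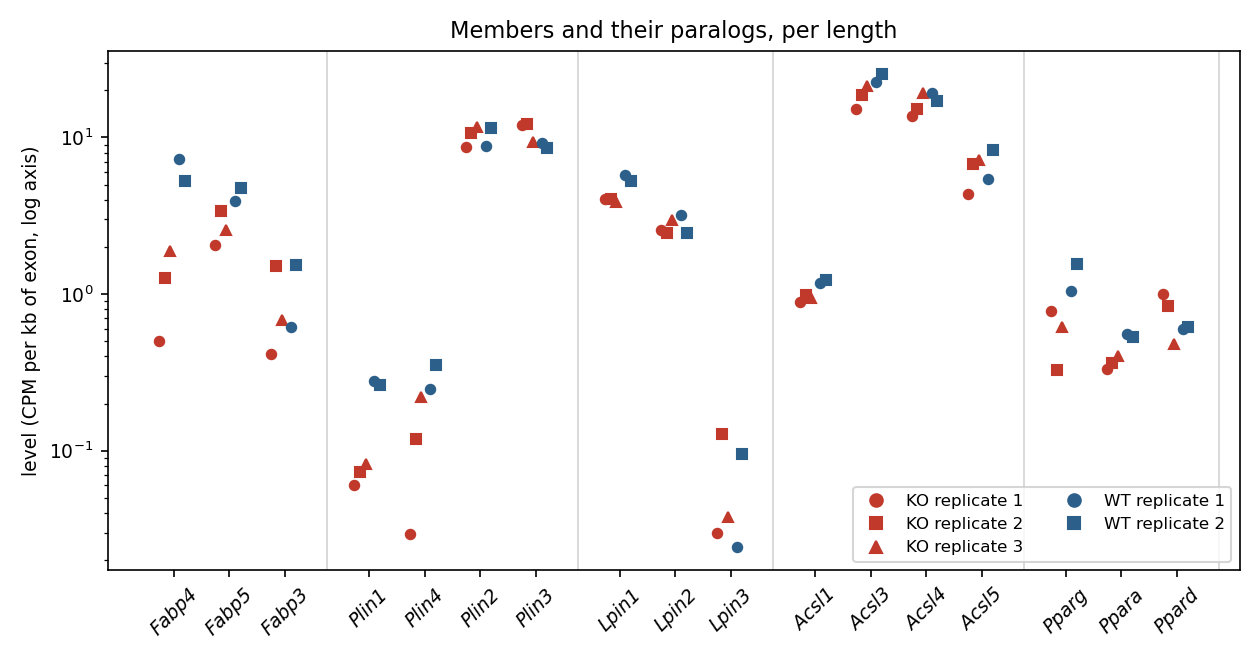
Members and measurable paralogs of 5 gene families, each library as CPM per kb of exon on a log axis, with the same colours and shapes for genotype and replicate. Plin2 and Plin3, with means of 8.90 to 11.2 CPM per kb, sit above Plin1 and Plin4. Fabp4 lies below Fabp5 in the KO libraries and above it in the WT libraries, with the whole Fabp4 locus counted as exon.

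Likeness to Cd36 was measured as the root mean square difference of centred log2(CPM + 1) profiles over the 5 libraries, among 11637 other genes averaging at least 2 CPM. The KO against WT contrast is part of every such profile and was known when the 10 genes were chosen, so the place of Fabp4 is a description only. The median gene was 1.02 away. Fabp4 was nearest, at 0.28, followed by the interferon-inducible Slfn5 (0.44), the sialyltransferase gene St6galnac5 (0.51), the matrix gene Edil3 (0.52) and the calcium-binding protein gene S100a4 (0.53). S100a4 had 1.24, 3.31 and 2.92 CPM in KO and 4.68 and 9.06 CPM in WT.

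The authors' deposited table listed 17 genes with an FDR under 0.05, of which 9 were lower in KO, and 2 of those were among the 10 genes. The log2 fold changes, KO over WT, in the authors' deposited table were -2.29 for Cd36 (FDR = 6.13e-05), -2.37 for Fabp4 (FDR = 0.0219) and -1.95 for Plin1 (FDR = 0.0525), the last just outside that threshold. In the authors' deposited table Adipoq was at -2.12, Lpl at -1.95, Plin4 at -1.34, Pparg at -1.18, Lpin1 at -0.47, Cebpa at -0.41 and Acsl1 at -0.35. These come from the same 5 libraries and are part of what made the genes known, so they add no separate evidence.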

How the data were processed

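Total RNA libraries from 3 KO and 2 WT cultures were read from a single end, per the labels' protocols. Reads were handled with HISAT2 2.1.0, featureCounts and edgeR 3.20.1 on mm10, per the submitters' processing notes. The authors deposited a signal per library, CPM of effective library sizes to 2 decimals. The deposited table also gives the authors' log2 fold change, log2 CPM, likelihood ratio score, p-value and FDR. No source used here names the annotation release, strand setting or treatment of multiply matching reads.

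Depth was read from the spacing of low values: in each library at least 99.98% of those under 100 CPM were within 0.0055 CPM of whole reads (23.4% to 51.6% by chance). Exact Poisson 95% intervals rest on these reads and cover counting error only. The deposited values are normalized, so limma 3.58.1 (R 4.3.3, trend option) was fitted, with no count model, to log2(CPM + 1) by genotype over all 5 libraries, for the 14884 genes reaching 0.5 CPM in 2 or more libraries. P-values were two-sided and adjusted by Benjamini-Hochberg over all these genes, with a threshold of 0.05. The limma step was tested on simulated data in which all genes had the same spread and libraries were independent. The real libraries need not share this, so that test does not show how many real differences the fit finds. Positions and exon lengths are from GENCODE M21 (GRCm38), which holds 50604 of the 53927 IDs with the same version. Exon length is the union of all annotated exons of a gene, which can exceed the length of its main transcript.

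The genes and lists were chosen with earlier results of these data known. Named genes were the 10, Dis3l2, their paralogs by family name, up to 4 per list with the smallest p, markers at 0 and the 5 profiles nearest to Cd36; others were named after their values were seen, and some genes that met the rule are not reported here. Alternatives were median-of-ratios scaling, other filters and pseudocounts, each library left out, a replicate block and Xist level as a term.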

Additional observations from a re-analysis of the deposited data

How the results depend on the processing

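Of 113 values of the 10 genes under alternatives, 112 were negative, the exception being Cebpa without WT replicate 2. Of these values 100 moved by less than the spread between libraries. The values are not separate checks, and the direction was known when the genes were chosen. Another filter cannot change a gene's log2 difference, and the replicate block gave the same values as leaving out KO replicate 3. The 13 larger moves came mostly from the pseudocount: at 5 the log2 difference was -1.18 for Cd36 and -0.40 for Pparg. Plin1, Plin4 and Adipoq fail the filter of 2 CPM in 3 libraries, so that setting gives them no value, and Plin1 and Adipoq have none without either WT library. Leaving out a library, the log2 difference ran from -2.15 to -1.69 for Cd36, from -2.63 to -1.86 for Fabp4 and from -2.60 to -1.27 for Lpl.

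Over all genes, limma called 1 gene, and 0 with median-of-ratios size factors, with no filter, with a pseudocount of 5 or with Xist level as a term. Leaving out a library gave 0 to 8 calls: 5 without KO replicate 1, 8 without KO replicate 3, and 0 without KO replicate 2 or either WT library, where the lone WT library is assumed to vary like the KO libraries. With a replicate block 390 genes were called, 339 higher and 51 lower, and 3 of the 79 lipid genes outside the 10, Agpat1 and Srebf1 among them, all higher in KO. The labels do not say what the numbers share. Deviations from the group mean correlated at 0.41 between the replicate 1 libraries and 0.54 between the replicate 2 libraries. With 2 WT libraries their deviations mirror each other. KO replicate 1 therefore had -0.41 with WT replicate 2, and KO replicate 2 had -0.54 with WT replicate 1. The 2 correlations are thus not separate signs of pairing. KO replicate 3 has no partner, so only 1 residual degree of freedom is left with the block. The cause of these moves was not tested. Depth limits Plin1, Plin4 and Adipoq, which rest on 7 to 58 reads a library.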
